A study of Homo sapiens with 4 samples.

Results

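The WNT ligands, their Frizzled receptors and the co-receptors LRP5, LRP6, ROR1, ROR2 and RYK were described across 4 established human leiomyosarcoma lines, SKUT1, SKN, SKLMS1 and RKN. Leiomyosarcomas are cancers with features of smooth muscle. Members were taken by symbol: every WNT name made of a number with or without the letter A or B, every Frizzled (FZD) name with a number, and the co-receptors just named. This gave 34 of the 23577 usable genes in the table, 19 ligands, 10 Frizzleds and 5 co-receptors. Poly(A) RNA came from untreated cultures in serum-containing medium, with 1 library per line, so each line was its own group. No replicate spread exists, neighbouring levels in any order of lines cannot be called different or alike, and all differences are given as sizes without a test. Levels are the authors' FPKM, fragments per kilobase of transcript scaled by sequencing depth, which can be compared between genes because they are per length.

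WNT proteins are secreted, lipid-modified ligands that bind the extracellular cysteine-rich domain of Frizzled receptors. With LRP5 or LRP6 as co-receptor they block the destruction of beta-catenin, which then switches on target genes through TCF factors. WNT5A, WNT5B and WNT11 are better known for routes that do not use beta-catenin, in which ROR1, ROR2 and RYK serve as co-receptors and which guide cell polarity and movement. In the uterus and in smooth muscle, WNT signals are known for their part in tissue patterning and in muscle growth.

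Differences between lines were taken on log2(FPKM + 1), which understates the difference of low genes. A gene was compared when its FPKM reached 1 in at least 1 line, which 23 of the 34 members and 13713 of all genes did. Of all genes, 6793 to 7534 per line were listed at 0, and such a value can be a failed estimate, so a 0 is reported only as listed. The columns summed to 619584 in SKUT1, 538300 in SKN, 494047 in SKLMS1 and 446954 in RKN. Rescaling them to the same sum (TPM) moved the median difference of all genes in SKUT1 to -0.31, against -0.03 on the FPKM scale, and in RKN to 0.24, against -0.04. Depth, estimated from the steps of low values, was 24100000 to 33500000 reads, at which 1 read on a transcript of 2 kb is worth an FPKM of 0.0166 to 0.0230. Of the smooth muscle markers, ACTA2, TAGLN, CALD1 and SMTN were above an FPKM of 1 in every line, with ACTA2 at 1.37 in SKN. CNN1 and LMOD1 were 0.228 and 0.0523 FPKM in SKN, and ACTG2 and MYLK 0.449 and 0.805 in RKN. MYH11 and DES reached at most 1.15 and 1.10 FPKM, and MYOCD was at most 0.0303 outside SKUT1.

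Members were shared between the lines to different extents. Of the 34 members, 7 were at an FPKM of 1 or more in all 4 lines. They were the ligands WNT3 and WNT5B, the receptors FZD2 and FZD7, and the co-receptors LRP5, LRP6 and RYK. The share of all genes at this level in all 4 lines was not counted. Another 6 reached 1 in 3 lines, 3 in 2 lines and 7 in 1 line, and 11 never did. Members at 1 or more numbered 17 in SKUT1, 12 in SKN, 17 in SKLMS1 and 13 in RKN, of 34. Of all 23577 genes, 11518 were at this level in SKUT1, 11474 in SKN, 11738 in SKLMS1 and 11460 in RKN. WNT11, the compared member with the lowest peak, reached 1.02 FPKM in SKUT1, and the highest of the 11 that were not compared was WNT6 at 0.238 FPKM in RKN.

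**Figure D1:**
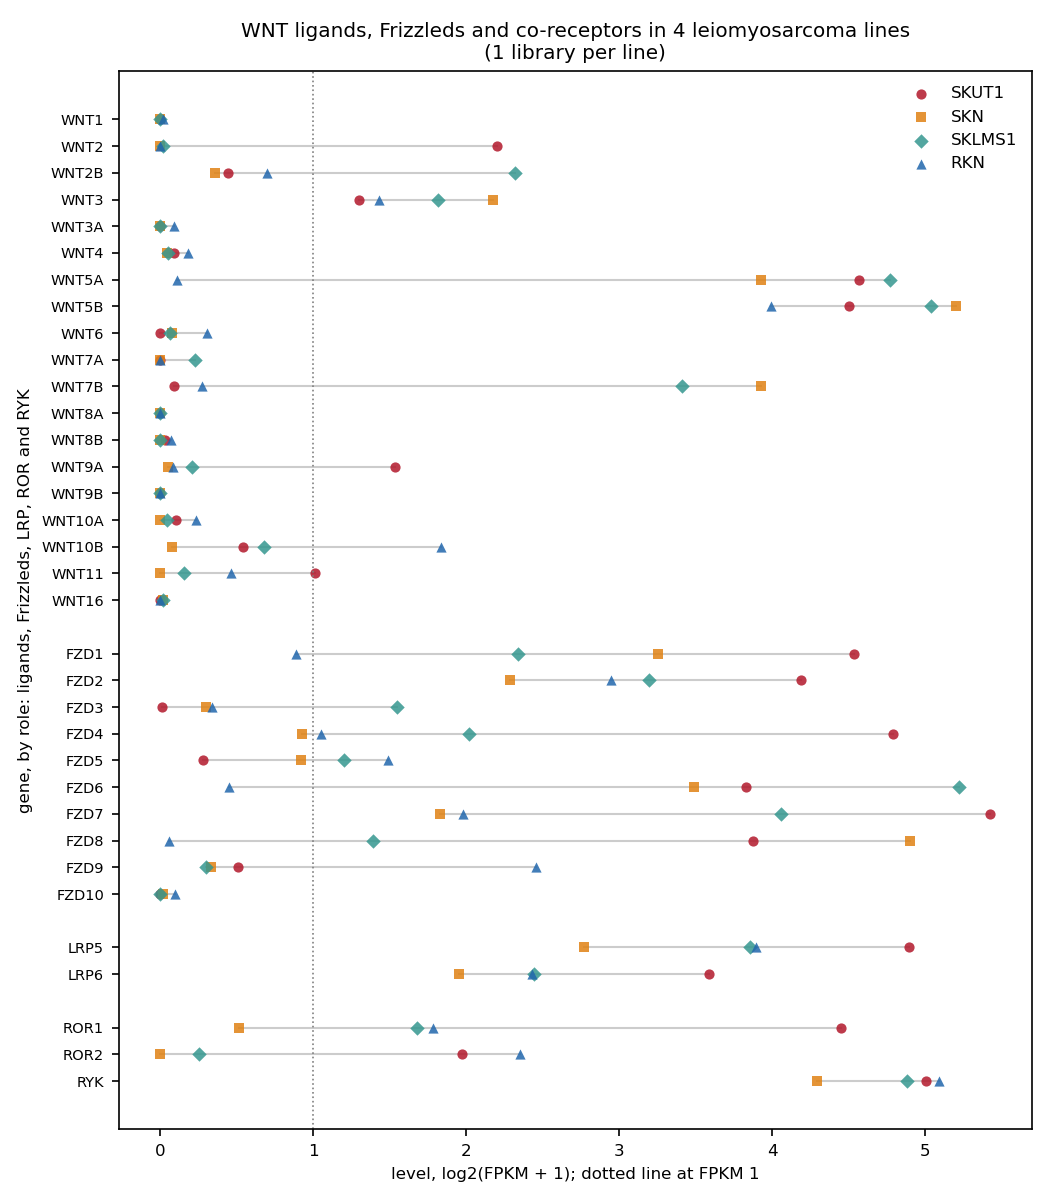
Level of each of the 34 members as log2(FPKM + 1) on the horizontal axis, with 1 symbol per line and 1 library per line; a grey bar joins the lowest and highest line, and the dotted line marks an FPKM of 1. WNT5B, LRP5 and RYK lie to the right of the dotted line in all 4 lines, whereas WNT5A, FZD6 and FZD8 lie left of it in RKN and reach 26.2 FPKM (WNT5A, SKLMS1), 36.2 (FZD6, SKLMS1) and 28.8 (FZD8, SKN).

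Among the ligands, WNT5B and WNT5A held most of the signal. Together they made up 83.1% of the summed ligand FPKM in SKUT1, 73.3% in SKN, 77.0% in SKLMS1 and 70.8% in RKN. A share within a line does not change when its whole column is multiplied by a constant, as in TPM rescaling. Shares after quantile normalization were not computed. WNT5B was 21.6 FPKM in SKUT1, 35.7 in SKN, 31.8 in SKLMS1 and 14.9 in RKN, a 2.39-fold spread between SKN and RKN. WNT5A was 22.7 FPKM in SKUT1, 14.2 in SKN and 26.2 in SKLMS1, but 0.0771 in RKN. WNT5A was thus low in RKN only: RKN minus the mean of the others was -4.31 on the log2(FPKM + 1) scale, and SKN, the next lowest line, stood 3.82 above RKN. In RKN the ligand pool was 70.4% WNT5B and 0.363% WNT5A, whereas SKUT1 held nearly equal shares of both, 40.5% and 42.6%.

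The upstream sequences of this pair are shown because the ligands are close relatives and only WNT5A was near 0 in RKN. The 250 bases before each RefSeq start are given 5′ to 3′ on assembly GRCh38.p14, which is not the authors' build, with CG dinucleotides in capitals.
WNT5A, upstream start, chr3:55487307-55487556, minus strand: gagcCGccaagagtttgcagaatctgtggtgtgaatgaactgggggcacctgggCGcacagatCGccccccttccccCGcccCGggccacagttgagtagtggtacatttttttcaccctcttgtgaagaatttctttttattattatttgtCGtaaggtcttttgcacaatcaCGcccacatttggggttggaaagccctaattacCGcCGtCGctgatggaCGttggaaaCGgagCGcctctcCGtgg
WNT5A, downstream start, chr3:55481399-55481648, minus strand: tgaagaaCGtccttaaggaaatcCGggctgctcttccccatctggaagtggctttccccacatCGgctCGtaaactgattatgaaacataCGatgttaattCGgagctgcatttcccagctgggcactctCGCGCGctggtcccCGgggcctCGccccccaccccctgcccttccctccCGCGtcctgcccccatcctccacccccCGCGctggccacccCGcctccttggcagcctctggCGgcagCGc
WNT5B, upstream start, chr12:1616806-1617055, plus strand: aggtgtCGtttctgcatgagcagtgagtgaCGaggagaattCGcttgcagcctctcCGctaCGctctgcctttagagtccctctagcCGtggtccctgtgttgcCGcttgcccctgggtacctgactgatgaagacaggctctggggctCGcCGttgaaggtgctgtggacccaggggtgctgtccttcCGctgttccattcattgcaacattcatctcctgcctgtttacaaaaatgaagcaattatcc
WNT5B, downstream start, chr12:1628981-1629230, plus strand: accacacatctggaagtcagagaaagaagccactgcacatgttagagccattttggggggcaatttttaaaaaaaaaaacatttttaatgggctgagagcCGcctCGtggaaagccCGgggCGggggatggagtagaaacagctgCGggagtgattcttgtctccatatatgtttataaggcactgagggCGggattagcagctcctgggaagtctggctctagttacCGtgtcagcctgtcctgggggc
The WNT5A windows held 14 and 18 CG dinucleotides and those of WNT5B 10 and 7, against a median of 11 over 35116 RefSeq promoter windows of the same length. The table does not separate transcripts, so which start was used in a line is not known. No methylation or binding data were measured, and the sequences are given as a description of the genes.

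WNT7B and WNT2 were each expressed in a part of the lines. WNT7B, a ligand that acts through beta-catenin in epithelia, was 14.2 FPKM in SKN and 9.62 in SKLMS1, against 0.0661 in SKUT1 and 0.208 in RKN. It made up 20.9% of the ligand FPKM in SKN and 12.8% in SKLMS1. The difference of SKUT1 minus SKN was -3.83 on the log2(FPKM + 1) scale. On that scale WNT7B was the only member at least 4-fold lower in SKUT1 than in SKN or SKLMS1. The scale understates low genes such as FZD3, at 0.00602 FPKM in SKUT1 and 1.92 in SKLMS1. WNT2, a mesenchymal ligand of lung and placenta development, was 3.59 FPKM in SKUT1, 0.0123 in SKLMS1 and listed at 0 in SKN and RKN. The SKLMS1 value is below what 1 read on a transcript of 2 kb is worth.

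Further ligands peaked in other lines at low levels. WNT10B, which is known for bone and fat cell fate, was 2.56 FPKM in RKN against 0.453 in SKUT1, 0.0546 in SKN and 0.600 in SKLMS1, and held 12.1% of the ligand FPKM of RKN. WNT2B was 3.99 FPKM in SKLMS1 against 0.360 in SKUT1, 0.282 in SKN and 0.621 in RKN. WNT9A was 1.90 FPKM in SKUT1 and 0.0381 to 0.157 in the other lines. These 3 ligands each stood at least 2-fold above the mean of the other lines in the line named first. Each reached the minimum FPKM of 1 only in that line, so the difference describes the gene and tests nothing. WNT3 had a 2.41-fold spread, with 1.46 FPKM in SKUT1, 3.51 in SKN, 2.51 in SKLMS1 and 1.70 in RKN. WNT11, known for guiding convergent cell movement in vertebrate embryos, was 1.02 FPKM in SKUT1, 0.113 in SKLMS1 and 0.379 in RKN and was listed at 0 in SKN.

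The other 10 ligands stayed below an FPKM of 0.25 in every line. WNT8A and WNT9B were listed at 0 in all 4 lines. WNT1, the founding mammalian member, and WNT3A, the ligand most used to switch on beta-catenin in culture, were 0.0143 and 0.0642 FPKM in RKN and listed at 0 in the other 3. WNT4, which the developing female tract needs, was at most 0.136 FPKM. WNT6, WNT10A and WNT8B were highest in RKN as well, at 0.238, 0.178 and 0.0496 FPKM, WNT7A was 0.172 in SKLMS1 and listed at 0 elsewhere, and WNT16 was at most 0.0147. In RefSeq order, 3 pairs of ligand genes are direct protein-coding neighbours. WNT10B next to WNT1 was 2.56 FPKM in RKN beside 0.0143, WNT3 next to WNT9B was 3.51 in SKN beside a listed 0, and WNT6 and WNT10A were both low.

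Promoter windows were available in the RefSeq table for 25 of the 34 members, as 28 windows. Their median was 27.5 CG dinucleotides, with a range of 3 to 44. WNT8B, which was at most 0.0496 FPKM, had the fewest, and its window is shown beside those of the expressed pair above, again with CG in capitals.
WNT8B, chr10:100462759-100463008, plus strand: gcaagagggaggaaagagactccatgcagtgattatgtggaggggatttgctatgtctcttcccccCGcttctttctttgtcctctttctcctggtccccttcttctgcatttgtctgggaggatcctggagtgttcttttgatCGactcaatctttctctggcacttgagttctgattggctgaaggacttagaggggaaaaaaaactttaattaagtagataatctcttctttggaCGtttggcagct
WNT8A followed with 4, but WNT9B, listed at 0 in all lines, had 31 and WNT1 had 29. Windows rich and poor in CG were thus both found among ligands at or near 0. GGGCGG, the GC box letters searched on either strand, was in 22 of the 28 windows and in 42.6% of all windows. CTTTGAT, a core of the TCF site, was found in 0 of the 28 windows on either strand and in 2.26% of all windows. FZD2, FZD3, FZD6, FZD7, FZD10, LRP6, WNT7B, WNT10B and WNT11 were not matched.

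Each line had a different leading Frizzled. On the log2(FPKM + 1) scale, highest and lowest line differed by a median of 3.60 over the 9 compared Frizzleds. The median was 1.76 over the 9 compared ligands and 1.31 over all genes, a difference that was not tested. This scale narrows the range of low genes. WNT2, WNT2B, WNT9A, WNT10B and WNT11 peaked at 1.02 to 3.99 FPKM, and FZD3, FZD5 and FZD9 at 1.81 to 4.49. The medians therefore do not rank Frizzleds and ligands by their fold of FPKM. FZD7 led in SKUT1 with 42.0 FPKM, 31.0% of the summed Frizzled FPKM there. FZD8 led in SKN with 28.8 FPKM and 51.2%. FZD6 led in SKLMS1 with 36.2 FPKM and 50.2%. FZD2 led in RKN with 6.72 FPKM and 36.1%, followed by FZD9 with 24.1%. The summed Frizzled level was 135.5 FPKM in SKUT1, 56.3 in SKN, 72.2 in SKLMS1 and 18.6 in RKN, a 7.28-fold spread between SKUT1 and RKN that was 5.25-fold on the TPM scale. The ligand sum was lowest in RKN as well but was not highest in SKUT1, with 53.3 FPKM in SKUT1, 68.1 in SKN, 75.3 in SKLMS1 and 21.2 in RKN. Ligand FPKM per Frizzled FPKM was therefore 0.394 in SKUT1 and 1.21 in SKN, 1.04 in SKLMS1 and 1.14 in RKN. Fewer expressing cells and less RNA per cell cannot be told apart in such bulk libraries.

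**Figure D2:**
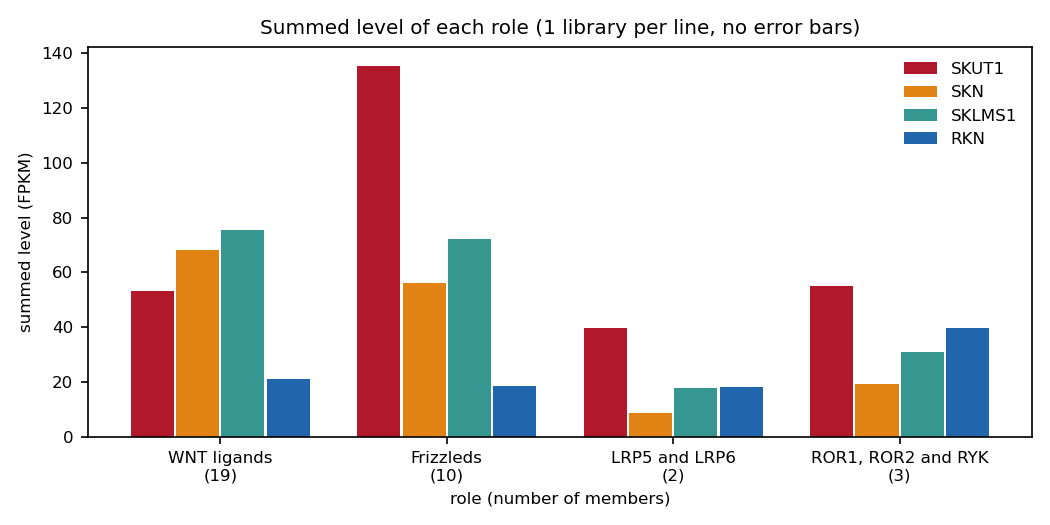
Summed FPKM of the 19 ligands, the 10 Frizzleds, LRP5 with LRP6, and ROR1 with ROR2 and RYK on the vertical axis, with 1 bar per line. The Frizzled bar of SKUT1 stands at 135.5 FPKM and that of RKN at 18.6, while the ligand bars of SKUT1, SKN and SKLMS1 lie between 53.3 and 75.3.

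**Figure D3:**
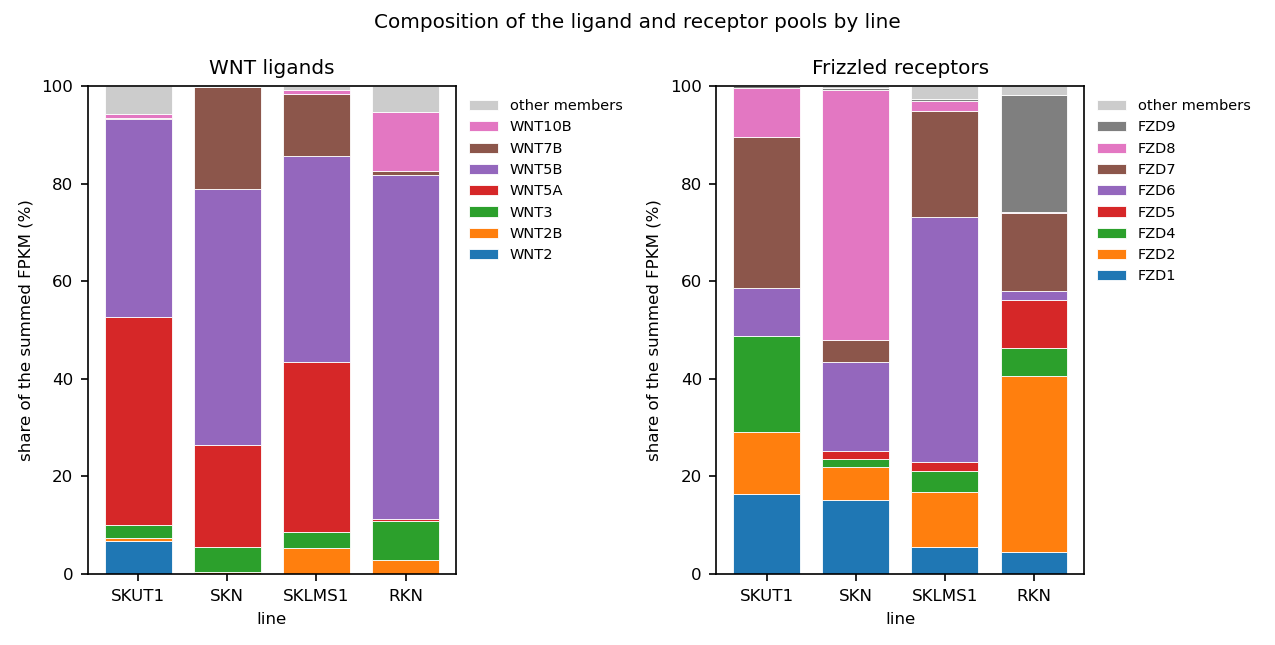
Share of the summed FPKM of the ligands (left) and Frizzleds (right) held by each member in each line, in percent; members below 5% in every line are pooled in grey at the top as other members. WNT5B with WNT5A fill over 70% of every ligand bar, and FZD7, FZD8, FZD6 and FZD2 are the largest segments in SKUT1, SKN, SKLMS1 and RKN.

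FZD1, FZD2 and FZD7 form a subfamily of close sequence and are known to bind many WNT ligands. FZD7, often found in stem cells and tumours, was 42.0 FPKM in SKUT1, 2.55 in SKN, 15.6 in SKLMS1 and 2.94 in RKN. SKN and RKN were low for it and SKLMS1 lay between them and SKUT1. FZD1 was 22.2 FPKM in SKUT1, 8.53 in SKN, 4.07 in SKLMS1 and 0.850 in RKN. FZD2 was the most even of the 3, with 17.2 FPKM in SKUT1, 3.88 in SKN, 8.14 in SKLMS1 and 6.72 in RKN. SKUT1 was the highest line for each. The subfamily sum was 81.4 FPKM in SKUT1, 15.0 in SKN, 27.8 in SKLMS1 and 10.5 in RKN, which is 60.1%, 26.6%, 38.6% and 56.4% of the Frizzled FPKM of these lines.

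FZD5 and FZD8 form another subfamily, and here the members parted. FZD8 was 13.7 FPKM in SKUT1, 28.8 in SKN, 1.62 in SKLMS1 and 0.0397 in RKN, the widest range of any member at 4.84 on the log2(FPKM + 1) scale. FZD5, a receptor of the gut epithelium, was at most 1.81 FPKM, with 0.212 FPKM in SKUT1, 0.891 in SKN, 1.30 in SKLMS1 and 1.81 in RKN. The 250 bases before the FZD8 start are shown because it was 1 of 2 genes among the matched members whose window held TATAAA on either strand, letters that 10.7% of all windows hold. TATAAA is in capitals.
FZD8, chr10:35642297-35642546, minus strand: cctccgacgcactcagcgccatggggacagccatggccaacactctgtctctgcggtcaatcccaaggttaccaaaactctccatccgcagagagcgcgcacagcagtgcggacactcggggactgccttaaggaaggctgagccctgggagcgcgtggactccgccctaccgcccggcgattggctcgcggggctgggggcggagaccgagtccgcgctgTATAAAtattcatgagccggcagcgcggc
The other such gene was WNT5B, whose downstream window above holds the letters on the opposite strand, as TTTATA.

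FZD6 was low in a single line and FZD4 high in a single line. FZD6, which orients hair follicles in mice, was 13.2 FPKM in SKUT1, 10.2 in SKN, 36.2 in SKLMS1 and 0.367 in RKN. It was low in RKN alone, where SKN, the next lowest line, stood 3.04 above it on the log2(FPKM + 1) scale. FZD3 was at most 1.92 FPKM, in SKLMS1, and 0.00602 in SKUT1, 0.230 in SKN and 0.264 in RKN. FZD4, the receptor of the vascular ligand norrin, was 26.6 FPKM in SKUT1, against 0.903 in SKN, 3.04 in SKLMS1 and 1.07 in RKN. SKUT1 exceeded SKLMS1, the next line, by 2.77 on the log2(FPKM + 1) scale. In GENCODE release 29 FZD4 overlaps PRSS23 on the other strand, and PRSS23 had 170.6 FPKM in SKUT1, 23.7 in SKN, 78.6 in SKLMS1 and 9.37 in RKN. The strand setting of the quantification is not given in the sources used here, so reads of the pair may not have been told apart. WNT2B overlaps ST7L in the same way, and ST7L lay between 4.29 and 6.99 FPKM.

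FZD9 was the only Frizzled that reached an FPKM of 1 in RKN alone. FZD9, a receptor known from brain and bone, was 4.49 FPKM there against 0.420 in SKUT1, 0.258 in SKN and 0.228 in SKLMS1. FZD10 was not detected above 0.0674 FPKM, its value in RKN, and was listed at 0 in SKUT1 and SKLMS1.

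Of the beta-catenin co-receptors, LRP5 was above LRP6 in every line. LRP5 was 28.7 FPKM in SKUT1, 5.84 in SKN, 13.5 in SKLMS1 and 13.8 in RKN. LRP6 was 11.0 FPKM in SKUT1, 2.86 in SKN, 4.44 in SKLMS1 and 4.40 in RKN. SKUT1 was highest and SKN lowest for both. LRP5 exceeded LRP6 by 2.61-fold in SKUT1, 2.04-fold in SKN, 3.03-fold in SKLMS1 and 3.14-fold in RKN. LRP5 has a partial copy, LRP5L, listed at 0.252 to 3.34 FPKM, and the split of reads between these copies is uncertain.

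ROR1, ROR2 and RYK are receptor tyrosine kinase relatives that bind WNT5A and similar ligands. RYK had the narrowest range of the 23 compared members, with 31.2 FPKM in SKUT1, 18.6 in SKN, 28.5 in SKLMS1 and 33.0 in RKN, a 1.77-fold spread. ROR1, an oncofetal receptor, was 20.9 FPKM in SKUT1, 0.428 in SKN, 2.20 in SKLMS1 and 2.45 in RKN. SKUT1 exceeded RKN, the next line, by 2.67 on the log2(FPKM + 1) scale. ROR2, needed for limb and cartilage growth, was 2.92 FPKM in SKUT1, 0.192 in SKLMS1 and 4.10 in RKN and was listed at 0 in SKN. SKN thus had RYK with ROR1 below 1 and ROR2 listed at 0, and RYK made up 97.8% of the FPKM of these 3 co-receptors there, against 56.7% in SKUT1.

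Set against the mean of the other 3 lines, SKUT1 was the line with the most members higher. SKUT1 exceeded that mean by 2-fold or more for 12 of the 23 compared members and fell short of it as far for 1, where 17.9% of all compared genes were higher and 13.1% lower. The higher ones were WNT2, WNT5A, WNT9A, FZD1, FZD2, FZD4, FZD7, FZD8, LRP5, LRP6, ROR1 and ROR2, and the lower one was WNT7B. Some of these calls rested on 1 other line. Without RKN, the SKUT1 difference was 0.22 for WNT5A and 0.73 for FZD8, against 1.63 and 1.76 with it, and both calls ended. The call of ROR2 in SKUT1, at 1.10, ended without SKLMS1, at 0.79, and without SKN, at 0.67. The share of members higher was 52.2%. On the TPM scale 13 were higher and 4 lower, beside 15% and 22.9% of all genes. The median difference of the 23 members in SKUT1 was 1.10, against -0.03 over all genes, and 1.09 against -0.31 on the TPM scale. Members that passed only through the line in which they were high had to differ, so these counts describe the set and test nothing. With a pseudocount of 5 in place of 1, the same call took in 6 members in SKUT1 and 0 in RKN, where a pseudocount of 1 gave 3. Most markers of fibroblasts and pericytes were also high in SKUT1, with 12 of 13 at least 2-fold higher and 1 lower. The lower one was RGS5, at 3.48 FPKM in SKUT1, 2.18 in SKN, 0.813 in SKLMS1 and 127.4 in RKN. The 13 markers summed to 12262 FPKM in SKUT1, 6.02 in SKN, 267 in SKLMS1 and 437 in RKN, and none was listed at 0 in SKUT1. Of the smooth muscle markers 8 of 11 were higher in SKUT1, with a summed FPKM of 6350 there against 110 to 912 in the others. Their part in the WNT receptor levels was not tested.

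In RKN 7 members were at least 2-fold lower and 3 higher, where 16.6% of all genes were lower and 11.6% higher. The lower ones were WNT5A, WNT7B, FZD1, FZD4, FZD6, FZD7 and FZD8, and the higher ones WNT10B, FZD9 and ROR2. Without SKUT1, the RKN differences of FZD4 and FZD7 were -0.42 and -0.96, and these calls ended. The share of members lower in RKN was 30.4%. The TPM scale gave 7 lower and 4 higher in RKN, beside 15.5% and 20.5% of all genes. In SKN 6 were lower and 2 higher, against 10.8% and 9.97% of all genes: FZD2, FZD4, FZD7, LRP5, ROR1 and ROR2 were lower, and WNT7B and FZD8 higher. Without SKUT1, the SKN calls of FZD2 and FZD4 ended, at -0.78 and -0.60. Without RKN, FZD6 in SKN was -1.04, against 0.32 with it. The TPM scale gave 10 lower and 3 higher in SKN, with 14.1% and 10.8% of all genes. In SKLMS1 5 were higher, WNT2B, WNT5A, WNT7B, FZD3 and FZD6, and 2 lower, FZD8 and ROR2, where 10.7% and 9.83% of all genes were. In SKLMS1 the calls of WNT5A and ROR2 ended without RKN, at 0.52 and -0.73, that of FZD8 without SKN, at -0.57, and that of ROR2 also without SKUT1, at -0.92. Without SKUT1, FZD4 in SKLMS1 was 1.03, against -0.24 with it. The TPM scale gave 6 higher and 3 lower in SKLMS1, beside 13.9% and 11.1% of all genes. Median differences of the members were -0.34 in RKN, -0.70 in SKN and 0.00 in SKLMS1, beside -0.04, -0.05 and -0.06 over all genes. The line with the highest level was the same for all 23 members on the FPKM and TPM scales, after median-of-ratios scaling and after quantile normalization. It was SKUT1 for 10, RKN for 5, and SKN and SKLMS1 for 4 each. The shares of all genes by highest line were not counted, so these numbers only describe the members. Some of these places were close, such as RYK at 33.0 FPKM in RKN and 31.2 in SKUT1, or WNT5A at 26.2 in SKLMS1 and 22.7 in SKUT1.

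**Figure D4:**
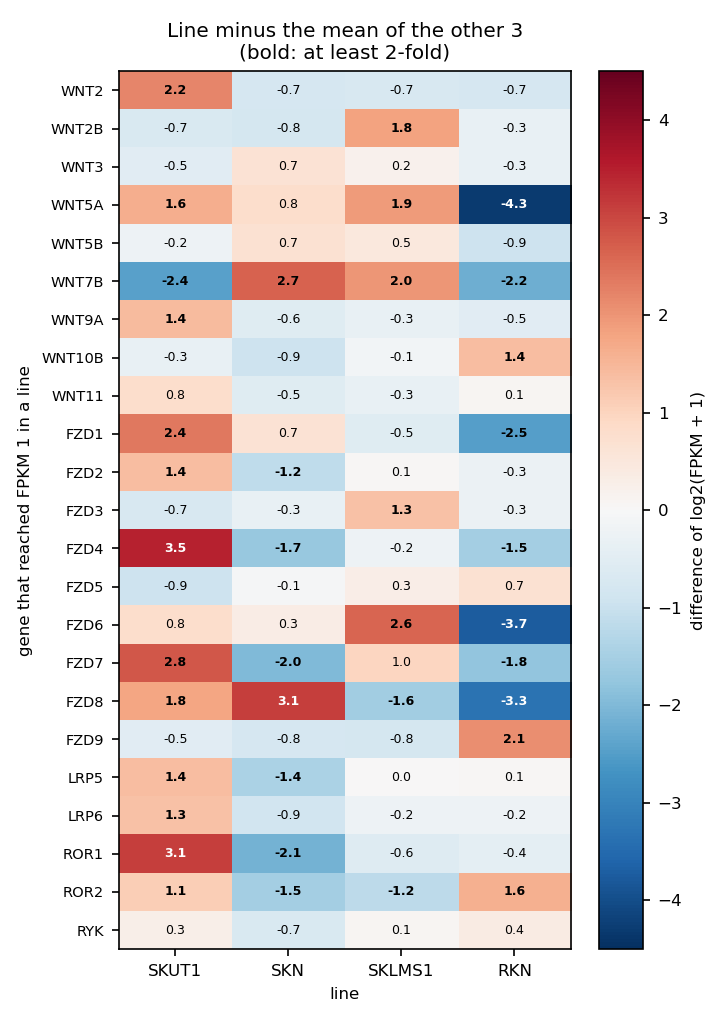
Difference of log2(FPKM + 1) between each line (columns) and the mean of the other 3, for the 23 members that reached an FPKM of 1 in a line (rows); red is higher, blue lower, and bold numbers mark differences of at least 2-fold. The SKUT1 column is red for 12 members in bold, and the RKN column is blue in bold for 7, most deeply for WNT5A at -4.3.

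At least 4-fold apart were 8 of the 23 members between SKUT1 and RKN, all higher in SKUT1, where 15.2% of all genes were apart, 10.2% higher and 5.03% lower in SKUT1. Those 8 were WNT2, WNT5A, FZD1, FZD4, FZD6, FZD7, FZD8 and ROR1. Between SKN and SKLMS1 only FZD8, higher in SKN, and FZD7, lower in SKN, were 4-fold apart, beside 7.9% of all genes; 3.6% of all genes were higher and 4.3% lower in SKN. SKUT1 and SKN were 4-fold apart in 6 members, beside 12.1% of all genes: WNT2, FZD4, FZD7, LRP5 and ROR1 were higher in SKUT1, beside 7.69%, and WNT7B lower, beside 4.4%. SKUT1 and SKLMS1 were also apart in 6, beside 12.1%: WNT2, FZD1, FZD4, FZD8 and ROR1 were higher in SKUT1, beside 7.28%, and WNT7B lower, beside 4.79%. SKN and RKN were apart in 7, beside 9.65%: WNT5A, WNT7B, FZD1, FZD6 and FZD8 were higher in SKN, beside 5.78%, and FZD9 and ROR2 lower, beside 3.86%. SKLMS1 and RKN were apart in 6, beside 9.79%: WNT5A, WNT7B, FZD6 and FZD7 were higher in SKLMS1, beside 6.33%, and FZD9 and ROR2 lower, beside 3.46%. These pairs share lines. All 4-fold calls between lines were made with 1 added to each FPKM, so low genes can miss them. SKUT1 stood 4-fold above every other line for WNT2, FZD4 and ROR1, beside 4.06% of all genes, and RKN 4-fold below every other line for WNT5A and FZD6, beside 1.65%. With that added 1, no member stood so far above the other lines in SKN, SKLMS1 or RKN, beside 1.34%, 1.33% and 1.37% of all genes. None stood so far below them in SKUT1, SKN or SKLMS1, beside 0.824%, 0.583% and 0.306%. As plain FPKM, FZD9 and WNT10B in RKN were 10.7-fold and 4.27-fold above the next line. FZD3 and WNT2B in SKLMS1 were 7.27-fold and 6.42-fold above it, and WNT9A in SKUT1 12.1-fold. In SKN the largest such fold was 2.11, for FZD8. Plain FPKM also put FZD3 in SKUT1, at 0.00602, more than 4-fold below SKN, the next lowest line, at 0.230. Across the lines, 12 of the 23 had a highest and a lowest line at least 4-fold apart, against 26.7% of all genes. Members such as WNT2 and FZD9 passed the minimum level only through the line in which they were high. The counts between lines therefore describe the set and test nothing.

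The genes that make and carry WNT ligands varied as well. WLS, the carrier that brings WNT proteins to the cell surface, was 51.3 FPKM in SKUT1, 17.4 in SKN, 0.947 in SKLMS1 and 5.04 in RKN. PORCN, which attaches the lipid, was 25.4 FPKM in SKUT1, 8.92 in SKN, 32.1 in SKLMS1 and 3.07 in RKN. SKLMS1, with the lowest WLS, had a summed ligand FPKM of 75.3, beside 68.1 in SKN. These 2 sums cannot be ranked from 1 library per line. RKN, with the lowest ligand sum, had the lowest PORCN. TRABD2A, a protease that inactivates WNT ligands, was 11.2 FPKM in RKN against 0.926 in SKUT1, 3.47 in SKN and 0.325 in SKLMS1. NOTUM, a secreted enzyme that removes the lipid, was at most 1.90 FPKM, in RKN, and MESDC2, a chaperone of LRP5 and LRP6, lay between 16.0 and 22.1. Of the 5 compared genes of this list, 2 were at least 2-fold higher and 1 lower in SKUT1, 1 higher and 0 lower in SKN, 1 and 2 in SKLMS1 and 1 and 2 in RKN. The shares of all compared genes to read this and the later list counts against are 17.9% and 13.1% in SKUT1, 9.97% and 10.8% in SKN, 10.7% and 9.83% in SKLMS1 and 11.6% and 16.6% in RKN.

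Several accessory receptors were highest in SKUT1. GPR124 and RECK, which together let cells sense WNT7A and WNT7B, were 20.3 and 105.7 FPKM in SKUT1. They were 0.419 and 4.33 FPKM in SKN, 5.82 and 5.03 in SKLMS1 and 1.14 and 4.50 in RKN. SKUT1 thus had the highest levels of this receptor pair and a low WNT7B, at 0.0661 FPKM beside 0.208 in RKN. These low WNT7B values cannot be ranked from 1 library per line, and a link between receptor pair and ligand was not tested. TPBG, a membrane inhibitor of LRP6, was 79.6 FPKM in SKUT1, 43.1 in SKN, 4.39 in SKLMS1 and 2.69 in RKN. Of 6 compared accessory genes, 4 stood at least 2-fold higher in SKUT1 and 4 lower in RKN, beside 17.9% and 16.6% of all genes, with medians of 2.94 and -1.46. Over all 9 accessory genes in the table, with no minimum level, the medians were 0.21 and -0.75, both short of 2-fold. The RKN median was also short of it with a pseudocount of 5, at -0.89, and without SKUT1, at -0.65. GPC4, a cell-surface glypican, was 12.9 FPKM in SKUT1, 0.0112 in SKN, 4.45 in SKLMS1 and 0.101 in RKN. PTK7, a polarity co-receptor, lay between 26.6 and 41.7 FPKM, and TSPAN12, a partner of FZD4, was at most 1.11.

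Some secreted antagonists were highest in SKUT1. DKK1, which blocks LRP5 and LRP6, was 517 FPKM in SKUT1, 9.92 in SKN, 5.62 in SKLMS1 and 4.95 in RKN, and SFRP4, which binds WNT ligands, was 63.2 in SKUT1, 1.18 in SKLMS1 and listed at 0 in SKN and RKN. SFRP2 was 6.41 FPKM in SKUT1 and at most 0.0664 elsewhere. SFRP1 was 10.1 FPKM in SKUT1, 12.4 in SKN and 12.0 in RKN and listed at 0 in SKLMS1. DKK3 was highest in SKN, at 238 FPKM, and KREMEN2, a DKK receptor, in RKN, at 3.48. Of 7 compared antagonists, 3 were higher and 0 lower in SKUT1 (17.9% and 13.1% of all genes), 2 and 3 in SKN (9.97% and 10.8%), 0 and 2 in SKLMS1 (10.7% and 9.83%) and 2 and 3 in RKN (11.6% and 16.6%). Among R-spondins and receptor turnover genes, RSPO4, an agonist that keeps Frizzleds at the surface, was 8.05 FPKM in RKN and 3.96 in SKN and listed at 0 in SKUT1 and SKLMS1. Its receptor gene LGR4 was 1.49 FPKM in RKN against 9.24 in SKUT1, 13.1 in SKN and 13.6 in SKLMS1. RNF43 and ZNRF3, which remove Frizzleds from the surface, were at most 1.02 FPKM, in SKLMS1, and 5.03, in RKN. Of these 5 compared genes, 1 was higher and 1 lower by 2-fold in SKUT1, in SKLMS1 and in RKN, and 1 higher and 0 lower in SKN.

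Of 12 compared genes around the beta-catenin destruction complex, at most 1 was 2-fold higher and at most 1 lower in any line. AXIN2, a scaffold of the complex and a feedback target of beta-catenin, was 60.0 FPKM in RKN against 1.41 in SKUT1, 1.48 in SKN and 0.741 in SKLMS1. APC, GSK3A, GSK3B, CSNK1A1 and TNKS2 were above 3 FPKM in every line, and CTNNB1, the beta-catenin gene itself, lay between 71.1 and 114 FPKM. Of 16 Dishevelled and planar polarity genes, 2 were higher and 3 lower in SKUT1, 2 and 1 in SKN, 2 and 1 in SKLMS1 and 1 and 2 in RKN. VANGL2, a core polarity gene, was 5.16 FPKM in RKN and at most 0.176 elsewhere, and DAAM2 was 10.3 in SKUT1 and at most 0.153 elsewhere. PRICKLE1 was 0.0366 FPKM in RKN against 3.28 to 5.45 elsewhere, and CELSR1 was 0.0401 in SKUT1 and 0.977 to 7.04 in the others. CELSR2 and PRICKLE2 were lowest in SKUT1, at 0.265 and 1.98 FPKM. Of 12 TCF factors and nuclear partners, 3 were higher and 2 lower in SKUT1, 2 and 0 in SKN, 2 and 2 in SKLMS1 and 1 and 2 in RKN, with TLE4, a corepressor, at 0.104 FPKM in RKN and 3.08 to 10.4 elsewhere. TLE1 was 0.280 and TLE2 8.10 FPKM in RKN, while TLE3 and BCL9 were lowest, at 3.22 and 1.48, and TCF7L1 highest, at 16.9, in SKUT1.

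The feedback targets of beta-catenin were highest in different lines. TNFRSF19 was 119.9 FPKM in RKN against 0.554 in SKUT1, 1.45 in SKN and 5.19 in SKLMS1. DKK1, a target as well as an antagonist, and LGR5, the stem cell receptor of R-spondins, were highest in SKUT1, and LGR5 was 3.89 FPKM there and at most 0.0121 elsewhere. BAMBI was 33.8 FPKM in SKUT1 and 24.8 in SKLMS1, against 0.363 in SKN and 0.742 in RKN. NKD2 was 3.64 FPKM in SKLMS1 and 1.09 in RKN, and LEF1 stayed at or below 0.484 FPKM. Of 10 compared targets, 3 were at least 2-fold higher and 3 lower in SKUT1 (17.9% and 13.1% of all genes), 1 and 5 in SKN (9.97% and 10.8%), 2 and 2 in SKLMS1 (10.7% and 9.83%) and 2 and 2 in RKN (11.6% and 16.6%). RKN, with the highest AXIN2 and TNFRSF19, was the line with the lowest summed ligand and Frizzled FPKM.

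**Figure D5:**
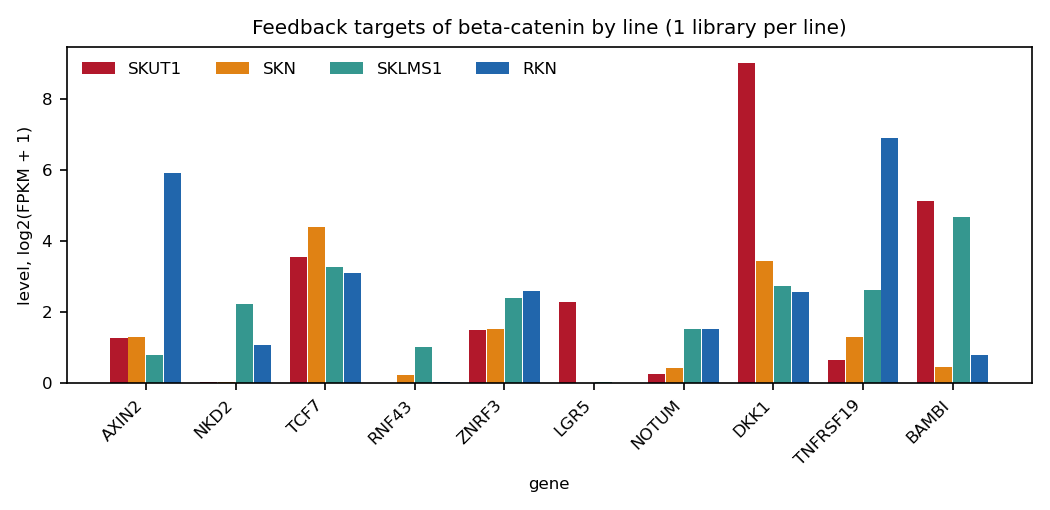
Level of the 10 compared feedback targets of beta-catenin as log2(FPKM + 1) on the vertical axis, with 1 bar per line and 1 library per line. AXIN2 and TNFRSF19 stand out in RKN, at 60.0 and 119.9 FPKM, and DKK1 in SKUT1, at 517 FPKM.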

How the data were processed

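Poly(A) RNA of 4 lines was sequenced by the authors as single-end reads of 75 bp from a stranded mRNA kit, per the labels' protocols. STAR, Cufflinks and hg19 are named in the submitters' processing notes, with no version. Which annotation, strand setting or filter was applied is not stated there. The authors deposited FPKM per gene symbol, with 1 column for each line. Of 23610 rows, 28 with a symbol turned into a date number and 5 with a spreadsheet error were left out.

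Values were compared as log2(FPKM + 1), for genes whose FPKM reached 1 in some line, as a line minus the mean of the other 3 (2-fold called) and between pairs of lines (4-fold called). With 1 library per line no test was run. Depth was estimated from genes with 1 transcript in GENCODE release 29, assuming fragments of 200 bases. With it 63.3 to 65.0% of the low values (286 to 332 genes) fell no more than 0.1 from a whole read, where 20% would by chance, and no counts were recovered. The unit was fitted to these values, so the share does not check it.

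All members were named, and from each of 8 pathway lists up to 6 genes with the widest range; CTNNB1 and LEF1 were named after their values were seen. Members and lists were chosen with earlier results of these data known. Marker lists of epithelial, endothelial and leukocyte cells summed to 55.1 to 555, 0.0693 to 40.1 and 5.60 to 77.3 FPKM per line. The code was tested on simulated data. Python 3.11.15, pandas 2.3.3 and numpy 2.4.6 were used. Promoter windows and gene order came from RefSeq on GRCh38.p14, and no hg19 coordinates are given.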

Additional observations from a re-analysis of the deposited data

How the results depend on the processing

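Counts of members past a fold moved with the pseudocount. With a pseudocount of 0.1, members lower in SKLMS1, SKN and SKUT1 numbered 4, 13 and 4, and members 4-fold apart 12 (SKUT1 and SKLMS1), 10 (SKUT1 and SKN), 6 (SKN and SKLMS1) and 10 (SKLMS1 and RKN). With a pseudocount of 5, members higher numbered 6 in SKUT1, 2 in SKLMS1 and 0 in RKN, members lower 3 in SKN and 1 in SKLMS1, and the pairs gave 4 (SKUT1 and RKN), 0 (SKUT1 and SKLMS1), 3 (SKUT1 and SKN), 1 (SKN and RKN), 1 (SKN and SKLMS1) and 2 (SKLMS1 and RKN). TPM rescaling gave 10 lower in SKN and 4 lower in SKUT1. A minimum FPKM of 5, which leaves fewer members, gave 0 higher in RKN, and 3 higher and 1 lower in SKLMS1. Leaving out 1 comparison line gave 2 to 4 higher and 7 to 10 lower in SKN (10 without RKN or SKLMS1), 2 to 4 lower in SKLMS1 (4 without SKN), 1 to 3 lower in SKUT1 (3 without SKN), 10 to 12 higher in SKUT1 and 6 to 9 lower in RKN. Detection at an FPKM of 5 left 8 members in SKLMS1 and 4 in RKN. All other counts stayed within 1.5 times, and no member difference past 2-fold changed sign. Below 2-fold with all lines, FZD6 in SKN turned from 0.32 to -1.04 without RKN, and FZD4 in SKLMS1 from -0.24 to 1.03 without SKUT1. The cause of each change was not tested. List medians were run under the same settings, chosen after seeing the data, and none that passed 2-fold changed sign, but the accessory receptor medians fell short of it with no minimum FPKM, at 0.21 in SKUT1 and -0.75 in RKN. No paired analysis was possible because each line has 1 library.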
